A study of Homo sapiens with 36 samples.

Results

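The 36 genes described here belong to the integrated stress response, the programme run by the transcription factor ATF4 when cells lack amino acids or meet other stress, taken without the aminoacyl-tRNA synthetases. The rule that chose them names genes without using their values, but it was set with earlier results of these data known. Each gene was read through 1 Affymetrix probe set, the set annotated with that symbol alone that had the highest mean over all 36 arrays. A probe set was found for 36 of the 36 members, among 19775 genes represented in this way. A gene was tested where its log2 value exceeded 4 on at least 3 of the 18 arrays of a compound, which held for 35 members with Aa and 36 with Ota. NUPR1 was the member left out with Aa.

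Total RNA came from HK-2 cells, an immortalised line derived from human renal proximal tubule epithelium, grown without serum in a medium with insulin, transferrin, selenite, hydrocortisone, EGF and a stabilised form of glutamine. For each compound and time there were 3 groups of 3 arrays, labelled as biological replicates: a high dose, a low dose and the vehicle control. Aa was given for 24 h or 48 h and Ota for 24 h or 72 h, which makes 12 groups. The labels spell out neither compound and give no concentrations, so the doses of Aa and Ota are not known to be matched. All groups come from 1 cell line. The expression values are the authors' GCRMA values on the log2 scale, on which a difference of 1 is a 2-fold change. The labels record no renewal of the medium, and in the controls time in culture, age of the medium, density and harvest cannot be told apart.

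ATF4 messenger RNA is present in resting cells but is poorly translated. Kinases that sense empty tRNAs (GCN2), unfolded proteins in the endoplasmic reticulum (PERK) or other stress phosphorylate the initiation factor eIF2, which slows most translation and raises that of ATF4. ATF4 then pairs with other leucine zipper proteins and switches on genes that make, import and recycle amino acids, together with feedback genes and the death-linked factor CHOP (DDIT3).

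Of 14 epithelial and proximal tubule markers, KRT8, KRT18, KRT19, CDH1, CDH2, EPCAM and PAX8 exceeded 4 on 36 of 36 arrays. So did the transporter genes SLC3A1 and SLC4A4. GGT1 exceeded 4 on 3 arrays. LRP2, CUBN, ANPEP and AQP1, known from the differentiated proximal tubule, did so on 0. Of 6 fibroblast markers, COL1A2, COL3A1 and PDGFRB exceeded 4 on 0 arrays and DCN, LUM and COL1A1 on 36. Of 5 leukocyte markers, PTPRC, CD14 and CD3E exceeded 4 on 0 arrays, ITGAM on 3 (up to 5.53) and FCER1G on 11 (up to 7.14). Of 5 endothelial markers, 4 were at or under 4 on all arrays. Of 6 distal nephron markers, SCNN1A and CLDN16 exceeded 4 on 36 arrays and SLC12A1 on 5. The Ota high dose arrays stood apart in level. Their median over the tested genes was 7.64 ± 0.16 at 24 h, against 8.28 ± 0.06 in the controls, and 7.95 ± 0.05 at 72 h, against 8.28 ± 0.02 (SD, n = 3 each). Counts of members and of the neighbouring lists for Ota high dose at 24 h are therefore also given with the arrays shifted to a common median.

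Promoter sequence was available for 28 of the 36 members, as the 250 bases before the RefSeq start of each gene (build GRCh38.p14). NUPR1, EIF4EBP1, PSPH, SHMT2, ALDH1L2, PYCR1, SLC7A11 and INHBE had none in the table used. The C/EBP-ATF response element, the sequence ATF4 and its C/EBP partners are known to bind, was searched as TGATGNAA on both strands. It occurred in the promoters of ATF3, ASNS and CHAC1, that is in 3 of 28, against 3.19% of 27305 promoters. The cyclic AMP response element, TGACGTCA, occurred in 1 of 28 (PPP1R15A), against 1.77% of all. The AP-1 element, TGANTCA, occurred in 3 of 28 (ATF5, DDIT3 and SLC3A2), against 6.60%. The antioxidant element, TGACNNNGC, occurred in 6 of 28, against 11.04%, and in SLC3A2 it overlapped the AP-1 match. A match describes the letters in this window and shows no binding.

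The 6 stretches below are from genes that rose together in the later Ota controls, described next, and show the matched letters in capitals within 80 bases, written 5′ to 3′ on the strand of the gene. They lie at chr1:212565180-212565259 (ATF3, plus strand), chr7:97872433-97872512 (ASNS, minus), chr15:40953226-40953305 (CHAC1, plus), chr19:48872327-48872406 (PPP1R15A, plus), chr12:57520685-57520764 (DDIT3, minus) and chr11:62881619-62881698 (SLC3A2, plus). In CHAC1 the match is on the other strand, so its capitals read as the reverse complement of the element. The capitals mark the C/EBP-ATF response element in ATF3, ASNS and CHAC1, the cyclic AMP response element in PPP1R15A and the AP-1 element in DDIT3 and SLC3A2.
ATF3: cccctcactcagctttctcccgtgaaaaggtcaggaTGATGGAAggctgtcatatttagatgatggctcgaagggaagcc
ASNS: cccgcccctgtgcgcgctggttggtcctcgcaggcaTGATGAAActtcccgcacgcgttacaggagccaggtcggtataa
CHAC1: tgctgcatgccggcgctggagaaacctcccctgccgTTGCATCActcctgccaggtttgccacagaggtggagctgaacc
PPP1R15A: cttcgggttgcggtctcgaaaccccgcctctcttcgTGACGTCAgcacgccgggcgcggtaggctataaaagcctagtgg
DDIT3: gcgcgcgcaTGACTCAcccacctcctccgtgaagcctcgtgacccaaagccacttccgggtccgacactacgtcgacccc
SLC3A2: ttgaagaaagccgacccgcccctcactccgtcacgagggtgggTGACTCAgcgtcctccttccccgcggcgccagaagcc

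The untreated state of these genes was not constant in the Ota experiment. Of the 36 members, 32 were higher in the 72 h controls than in the 24 h controls, 0 were lower and 4 were not called (limma, adjusted p under 0.05, Benjamini-Hochberg over 11029 genes). Among all genes tested, 14% were called higher, 15.8% lower and 29.8% in either direction. The median change of the members was 1.57 on the log2 scale and that of all genes -0.00. The 3 later arrays lay above the 3 earlier ones for 34 of the 36 members, against 25.9% of all genes tested, and below them for 0, against 27.7%. NUPR1 passed the filter only through Ota 72 h control and low dose arrays, so its rise was bound to appear.

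ATF4 read 13.74, 13.93 and 13.85 in the 72 h controls, against 12.32, 12.34 and 12.20 in the 24 h controls. The groups did not overlap. The rise was 1.55 ± 0.12 (± SE, adjusted p = 4.01e-07), or 2.94-fold. ATF3, a repressive leucine zipper factor of the same family, read 9.56, 9.61 and 10.07, against 4.03, 3.38 and 5.11 in the 24 h controls. It was near the limit of 4 in the earlier cultures and clearly present in the later ones. Its change was 5.58 ± 0.40, or 5.37 with values at or under 4 set to 4 (floored). DDIT3, the gene of CHOP, read 12.71, 12.58 and 12.80, against 7.62, 7.72 and 7.45. All later arrays were far above all earlier ones, a rise of 34.4-fold (5.10 ± 0.46, adjusted p = 1.21e-06).

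The other factors and feedback genes moved the same way. TRIB3, a pseudokinase that restrains ATF4 and CHOP, read 13.36, 13.25 and 13.34 in the 72 h controls and 11.31, 11.28 and 11.32 in the 24 h controls. The groups were far apart beside the spread of their replicates, with a rise of 2.01 ± 0.19. SESN2, a leucine sensor that holds back mTORC1, read 9.85, 9.94 and 10.20, against 8.35, 8.31 and 8.59, again without overlap, and rose by 1.58 ± 0.17. CEBPG, a dimer partner of ATF4, rose by 1.92 ± 0.18, JDP2 by 1.44 ± 0.22, CEBPB by 1.32 ± 0.24 and PPP1R15A, the subunit that leads eIF2 dephosphorylation, by 1.55 ± 0.24. EIF4EBP1, the translation repressor 4E-BP1, rose by 1.26 ± 0.29. NUPR1 rose at least 4.36-fold, the 24 h arrays all being at or under 4. ATF5 (0.35 ± 0.22, adjusted p = 0.251) and DDIT4 (0.39 ± 0.14, adjusted p = 0.05) were the factors not called.

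All 13 enzymes rose in the later controls. ASNS, which makes asparagine, read 12.03, 11.82 and 12.02 in the 72 h controls, against 9.14, 9.55 and 9.27 in the 24 h controls. No value overlapped, and the rise was 2.63 ± 0.24 or 6.21-fold (adjusted p = 1.41e-06). CHAC1, which degrades glutathione, read 7.74, 7.61 and 7.07, against 4.37, 5.30 and 4.38, a rise of 2.79 ± 0.44. ALDH1L2, the mitochondrial 10-formyltetrahydrofolate dehydrogenase, read 8.73, 8.69 and 9.13, against 4.08, 3.32 and 4.94. It was close to background at 24 h and rose by 4.74 ± 0.54 (floored 4.51). Of the serine pathway enzymes, PHGDH rose by 1.09 ± 0.21, PSAT1 by 0.53 ± 0.14 and PSPH by 1.25 ± 0.21. SHMT2 and MTHFD2 of mitochondrial one-carbon metabolism rose by 1.29 ± 0.18 and 1.71 ± 0.26. CTH, which makes cysteine from cystathionine, rose by 2.57 ± 0.42, and CBS, the step before it, by 0.69 ± 0.16. PCK2 (1.68 ± 0.24), PYCR1 of proline synthesis (1.41 ± 0.17) and the tRNA exporter XPOT (1.39 ± 0.16) completed the group. PSAT1 lost its call without 24 h control replicate 2 (adjusted p = 0.0597) or 72 h control replicate 1 (0.0591).

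Of the 7 amino acid transporters, 6 rose. SLC7A11, the light chain of the cystine importer, read 11.206, 11.003 and 11.268 in the 72 h controls, against 6.61, 6.32 and 6.88 in the 24 h controls. That gap of 4.55 ± 0.28 corresponds to 23.5-fold (adjusted p = 4.9e-08). The large neutral amino acid carrier SLC7A5 rose by 2.89 ± 0.40 and SLC3A2, the heavy chain that both light chains share, by 2.71 ± 0.22. SLC1A4 rose by 1.74 ± 0.21, SLC7A1, which carries cationic amino acids, by 1.28 ± 0.25 and the glutamine carrier SLC1A5 by 1.12 ± 0.16. SLC38A2 (0.37 ± 0.15, adjusted p = 0.084) was not called. Among the membrane and secreted proteins, INHBE, an activin subunit, read 11.94, 11.97 and 12.24, against 6.45, 6.45 and 6.57, a rise of 47.1-fold (5.56 ± 0.36). STC2, a secreted glycoprotein, read 7.77, 7.39 and 7.40, against 4.58, 4.07 and 4.59, a rise of 3.101 ± 0.38. VLDLR, the lipoprotein receptor, was not called (0.36 ± 0.30, adjusted p = 0.4).

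**Figure D1:**
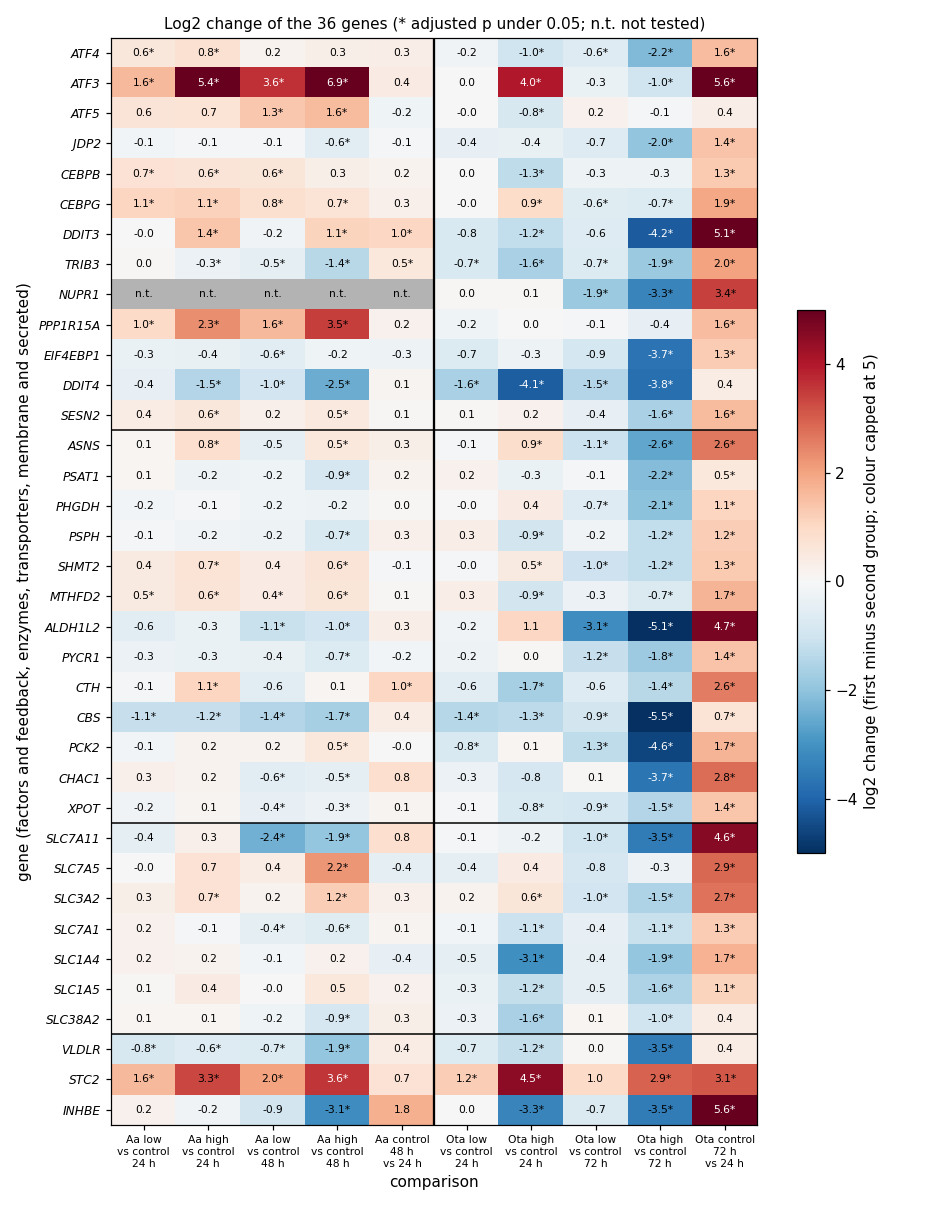
Log2 change of each of the 36 members (rows, by role) in the 8 comparisons of dose with control and the 2 comparisons of later with earlier controls (columns), colour scale in log2 units. The column of Ota controls, 72 h against 24 h, is above 0 in all 36 rows, and the column of Ota high dose at 72 h is called lower in 31.

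Neighbouring pathways were read in the same Ota control comparison, from lists chosen with earlier results of these data known. Their counts are read against 14% higher, 15.8% lower and 29.8% either way among all genes. Endoplasmic reticulum chaperones and sensors of the ATF6 and XBP1 arms rose in 16 of 16, with a median change of 2.35. The chaperone HSPA5 rose by 2.52 ± 0.21, its partner SDF2L1 by 4.42 ± 0.27 and ERN1, the IRE1 sensor, by 4.04 ± 0.25. Other known targets of the integrated stress response rose in 18 and fell in 1 of 22 tested, with a median of 1.01. The fall was that of TXNIP, at -6.02 ± 0.44 (floored -5.93). SLC6A9, 1 of the 18, passed the filter only through the 3 control arrays of 72 h, so its rise was bound to appear. Of the eIF2 kinases and machinery, 5 of 19 rose and 1 fell (median 0.05), with the PERK gene EIF2AK3 at 1.33 ± 0.14. One-carbon and folate enzymes outside the members rose in 1 and fell in 4 of 8, with GLDC at -2.02 ± 0.28 and TYMS at -1.76 ± 0.13. mTORC1 amino acid sensing genes rose in 4 and fell in 2 of 15. NRF2 targets, a group known to share SLC7A11, were called in 0 of 7.

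The summed level of the 6 fibroblast markers was 31.7 to 32.3 in the 72 h controls and 35.8 to 37.0 in the 24 h controls, with COL1A2, COL3A1 and PDGFRB at or under 4 on all arrays. That of the 5 endothelial markers was 17.3 to 17.8 and 15.8 to 16.0, from ESAM alone over 4. The 14 epithelial markers summed to 113.7 to 113.8 and 111.6 to 113.0. The gap between the 3′ and 5′ actin control probe sets, which widens as RNA degrades, was 1.29 ± 0.15 and 1.08 ± 0.24 (SD). Their part in the members' rise was not tested. Fewer cells of a type and less RNA per cell cannot be told apart in bulk RNA.

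In the Aa experiment the controls were compared at 48 h and 24 h. Of 35 members tested, 3 were higher and 0 lower, against 1.29% called among all genes, and the member median was 0.23 against -0.01. DDIT3 read 9.34, 9.03 and 8.43 in the 48 h controls and 7.78, 7.96 and 7.95 in the 24 h controls, a rise of 1.04 ± 0.18 (adjusted p = 0.015). CTH rose by 1.04 ± 0.22 and TRIB3 by 0.55 ± 0.11. With the replicate number as a block, 7 members were called, all higher, where 7.11% of all genes were called higher and 9.22% lower. Among them were INHBE (1.79 ± 0.16, adjusted p = 9.25e-05), CHAC1, STC2 and SLC38A2. With any 1 control array left out, 0 to 6 were called: 0 without 48 h control replicate 1 or 2 or 24 h control replicate 3, 1 without 24 h control replicate 1 or 2 and 6 without 48 h control replicate 3.

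**Figure D2:**
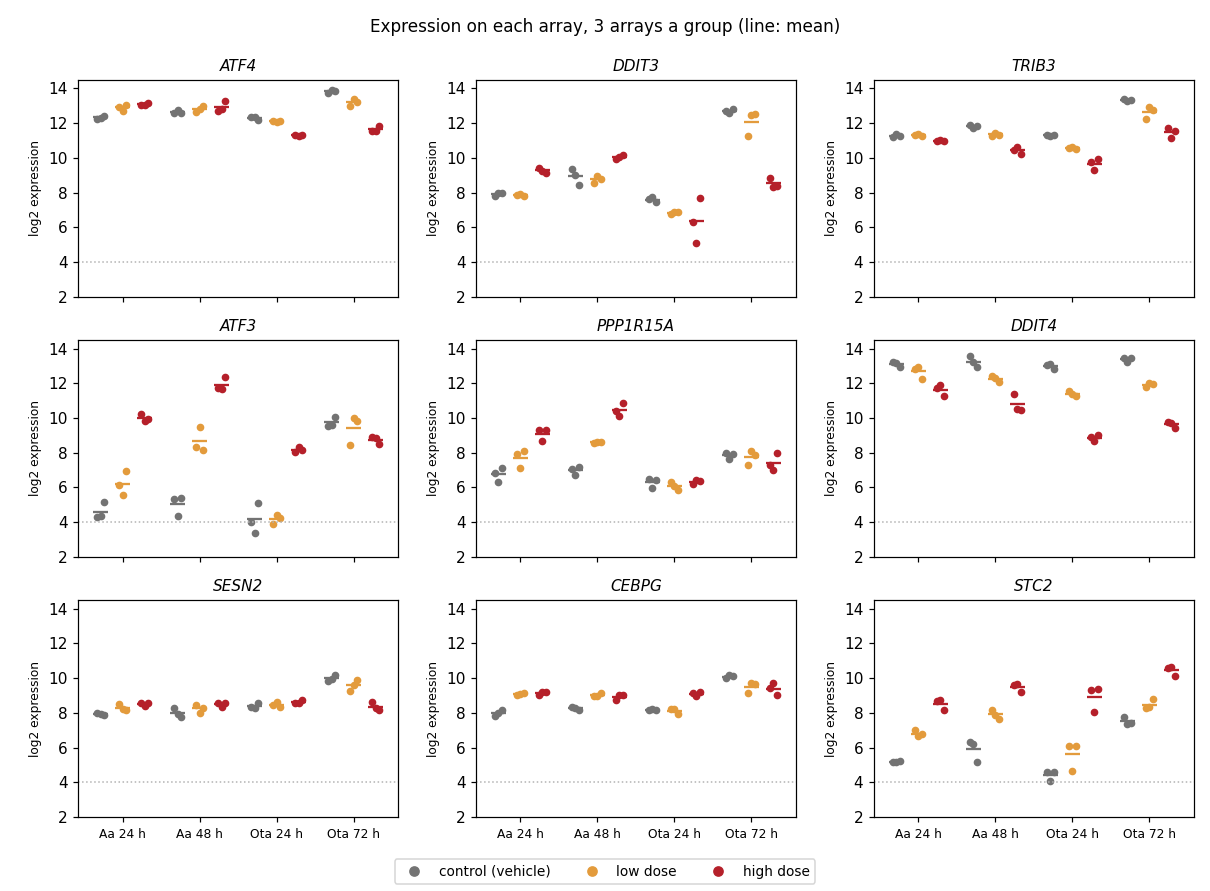
Log2 expression of 9 factor, feedback and secreted genes on each of the 36 arrays (y axis) by compound and time (x axis), with control, low dose and high dose side by side, a line at each group mean and a dotted line at 4. ATF4, DDIT3 and TRIB3 are highest in the Ota controls at 72 h, PPP1R15A in Aa high dose at 48 h and STC2 in Ota high dose at 72 h.

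With the high dose of Ota at 72 h the members were low beside their own controls. Of the 36, 31 were lower than in the 72 h controls, 1 was higher and 4 were not called. Among all genes, 37% were called lower, 26.3% higher and 63.4% in either direction. The median change of the members was -1.84, against -0.12 for all genes. The groups did not overlap for 32 members, 31 of them lower, where 71.8% of all genes did not overlap and 41% were lower without overlap. Shifting all arrays to a common median left 28 lower and 1 higher, against 28% and 39.6% of all genes. The 72 h controls enter this comparison and the one between control times, so the falls here and the rises there are not independent.

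ATF4 read 11.56, 11.54 and 11.86 with the high dose of Ota at 72 h, against 13.74, 13.93 and 13.85 in the controls. The treated arrays also lay under every 24 h control array. The change was -2.19 ± 0.12 (adjusted p = 1.34e-09), 4.56-fold lower. DDIT3 read 8.87, 8.35 and 8.38, against 12.71, 12.58 and 12.80, a change of -4.17 ± 0.46. It stayed above the 24 h control arrays, which read 7.45 to 7.72. TRIB3 read 11.70, 11.14 and 11.53, against 13.36, 13.25 and 13.34, a change of -1.86 ± 0.19. SESN2 read 8.66, 8.26 and 8.18, against 9.85, 9.94 and 10.20, and changed by -1.63 ± 0.17. DDIT4, the mTORC1 inhibitor REDD1, read 9.76, 9.72 and 9.42, against 13.47, 13.24 and 13.46. It fell by 3.76 ± 0.14 on the log2 scale (adjusted p = 2.44e-11), with all treated arrays below those of every control group. EIF4EBP1 read 6.68, 6.40 and 6.83, against 10.52, 9.84 and 10.62, a change of -3.69 ± 0.29.

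JDP2 changed by -1.99 ± 0.22 and CEBPG by -0.68 ± 0.18. ATF3 read 8.91, 8.84 and 8.48 with the high dose, against 9.56, 9.61 and 10.07. Its change of -1.004 ± 0.40 (adjusted p = 0.037) lost its call when any 1 of the 6 arrays was left out (adjusted p = 0.0514 to 0.122) and with shifted arrays (0.14). CEBPG was not called with shifted arrays (-0.36, adjusted p = 0.0901) or with the mean of its probe sets (0.0523). PPP1R15A (-0.42 ± 0.24, adjusted p = 0.149), ATF5 (-0.08 ± 0.22) and CEBPB (-0.26 ± 0.24) were not called. NUPR1 was at least 4.36-fold lower, with all 3 treated arrays at or under 4. It is 1 of the 31 called lower, but it passed the filter only through 72 h control and low dose arrays, so this difference was bound to appear.

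Every one of the 13 enzymes was lower with the high dose of Ota at 72 h. CBS read 3.75, 3.38 and 3.58, against 9.12, 9.03 and 9.19 in the controls. The treated arrays were all at or under 4, so the fall was at least 34.6-fold (adjusted p = 2.11e-12). CBS has a near-identical annotated copy, CBSL, which this probe set may also read. ALDH1L2 read 4.45, 3.29 and 3.56, against 8.73, 8.69 and 9.13, a change of -5.09 ± 0.54 (floored -4.70). PCK2, mitochondrial phosphoenolpyruvate carboxykinase, read 4.74, 5.41 and 4.75, against 9.35, 9.60 and 9.70. Its fall of 24.0-fold (-4.58 ± 0.24) took it well under the 24 h controls, which read 7.82 to 7.95. CHAC1 read 4.24, 4.34 and 2.86, against 7.74, 7.61 and 7.07, a change of -3.66 ± 0.44 (floored -3.28). ASNS read 9.44, 9.61 and 9.04, against 12.03, 11.82 and 12.02, a change of -2.59 ± 0.24. The 24 h controls read 9.14 to 9.55, which the treated arrays straddled. The serine pathway enzymes PSAT1, PHGDH and PSPH changed by -2.17 ± 0.14, -2.07 ± 0.21 and -1.23 ± 0.21. SHMT2 changed by -1.23 ± 0.18, PYCR1 by -1.83 ± 0.17, CTH by -1.39 ± 0.42, XPOT by -1.46 ± 0.16 and MTHFD2 by -0.71 ± 0.26. MTHFD2 was not called with shifted arrays (-0.38, adjusted p = 0.139) or when control replicate 1 (0.0764), control replicate 3 (0.0593), high dose replicate 2 (0.0827) or high dose replicate 3 (0.0641) was left out, nor CTH without high dose replicate 2 (0.0618).

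Of the 7 transporters, 6 were lower. SLC7A11 read 7.74, 7.21 and 8.03 with the high dose of Ota at 72 h, against 11.206, 11.003 and 11.268, a change of -3.50 ± 0.28. SLC1A4, a carrier of alanine, serine and cysteine, read 8.05, 7.92 and 8.02, against 10.17, 9.67 and 9.99, a change of -1.95 ± 0.21. SLC1A5 changed by -1.56 ± 0.16, SLC3A2 by -1.53 ± 0.22, SLC7A1 by -1.11 ± 0.25 and SLC38A2 by -0.99 ± 0.15. SLC7A5, at -0.31 ± 0.40 (adjusted p = 0.512), was not called and overlapped the controls. INHBE read 8.96, 7.66 and 9.04, against 11.94, 11.97 and 12.24 (-3.50 ± 0.36), and VLDLR changed by -3.50 ± 0.30. STC2 was the 1 member that rose. It read 10.58, 10.65 and 10.15, against 7.77, 7.39 and 7.40, above all other groups of the study, and the rise was 2.94 ± 0.38 or 7.69-fold (adjusted p = 6.17e-06).

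Against the 24 h controls, an alternative chosen after seeing the data, the same high dose arrays of 72 h were higher in 11 and lower in 12 of the 36 members (24.2% and 36.5% of all genes), with a median of 0.03. STC2 (6.04 ± 0.38), ATF3 (4.58 ± 0.40) and SLC7A5 (2.57 ± 0.40) were the highest there. CBS, at or under 4 on the treated arrays, was at least 21.5-fold lower, DDIT4 changed by -3.37 ± 0.14 and VLDLR by -3.13 ± 0.30. The low dose arrays of 72 h were higher than the 24 h controls in 26 and lower in 1 (DDIT4, -1.09 ± 0.14), with a median of 1.13, where 10.9% and 9.84% of all genes were called.

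**Figure D3:**
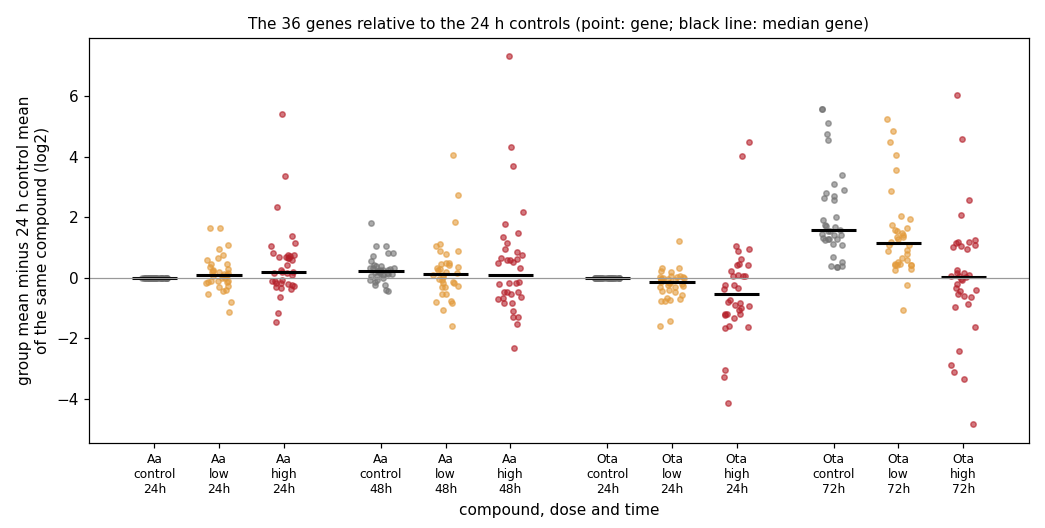
Mean log2 level of each of the 36 members minus its mean in the 24 h controls of the same compound (y axis), 1 point a gene, by group (x axis), with the median marked. The median is 1.57 in the Ota controls at 72 h, 1.13 with the low dose and 0.03 with the high dose.

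With the low dose of Ota at 72 h, 15 of the 36 members were lower than in the controls and 0 were higher, against 7.28% called lower, 9.79% higher and 17.1% either way among all genes. The member median was -0.64, against 0.02 for all genes. ALDH1L2 read 5.11, 6.87 and 5.23, against 8.73, 8.69 and 9.13, a change of -3.12 ± 0.54. ATF4 read 12.98, 13.41 and 13.19, against 13.74, 13.93 and 13.85, a change of -0.65 ± 0.12, between the controls and the high dose. DDIT4 changed by -1.48 ± 0.14, PCK2 by -1.28 ± 0.24, PYCR1 by -1.15 ± 0.17, ASNS by -1.07 ± 0.24 and CBS by -0.92 ± 0.16. NUPR1, at 2.78, 6.11 and 3.92, changed by -1.85 ± 0.56 (floored -1.42). It passed the filter only through 72 h control and low dose arrays, so this difference was favoured in advance. NUPR1 was not called with no filter on dim genes (adjusted p = 0.0855) or with the 72 h arrays alone (0.0921). Replicate 1 was the lowest of the 3 low dose arrays for 32 of the 36 members, with a median of -1.03 beside the controls, where the other arrays had -0.38 and -0.41. Leaving out 1 array gave 10 to 17 members lower. Calls of CEBPG, TRIB3, NUPR1, PHGDH and SLC7A11 were lost without replicate 1 (adjusted p = 0.174, 0.123, 0.167, 0.189 and 0.131).

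High and low dose at 72 h were also set against each other. The high dose was lower in 26 members and higher in 1, STC2 (1.98 ± 0.38), against 36.7%, 21.7% and 58.4% of all genes lower, higher and either way. NUPR1, 1 of the 26, passed the filter only through 72 h control and low dose arrays. It was not called with shifted arrays (adjusted p = 0.0945) or floored (0.159). CBS was at least 18.3-fold lower and CHAC1 changed by -3.72 ± 0.44 (floored -3.35). CHAC1 read 7.04, 7.73 and 7.85 with the low dose, which overlapped its controls.

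Several values moved with the high dose of Ota at 72 h. The gap between the 3′ and 5′ actin control probe sets, which widens as RNA degrades, was 1.88 ± 0.37, against 1.29 ± 0.15 in the controls. The 14 epithelial markers summed to 98.7 to 102.8, against 113.7 to 113.8, and the 5 endothelial markers to 15.1 to 16.0, against 17.3 to 17.8. The 6 distal nephron markers summed to 25.2 to 27.4, against 30.3 to 31.6. Of these, SLC12A3, AQP2 and CALB1 were over 4 on 0 arrays, while SCNN1A (-1.93 ± 0.14) and CLDN16 (-2.88 ± 0.51) were lower. The 5 leukocyte markers summed to 15.8 to 16.6, against 11.2 to 12.2, while PTPRC, CD14 and CD3E were over 4 on 0 arrays. FCER1G, a subunit of Fc receptors, averaged 6.77 with the high dose and 2.53 in the controls. The 6 fibroblast markers summed to 33.9 to 35.6, against 31.7 to 32.3. Their part in the members' changes was not tested. The neighbouring lists are read against 37% lower, 26.3% higher and 63.4% either way among all genes. Of the chaperone list, 11 of 16 were lower and 0 higher at this dose and time (median -1.44), with SDF2L1 at -4.27 ± 0.27 and HYOU1 at -3.09 ± 0.25. Of the eIF2 kinases and machinery, 8 of 19 were lower and 3 higher, with the eIF2B subunit gene EIF2B4 at -3.29 ± 0.44 (floored -3.01) and DELE1, a mitochondrial stress relay, at -2.66 ± 0.29. Other targets of the response were lower in 11 and higher in 3 of 22, TXNIP (3.92 ± 0.44) and the transporter subunit SLC3A1 (-3.29 ± 0.23) most. TXNIP averaged 8.11 with the high dose, 4.18 in the 72 h controls and 10.21 in the 24 h controls. In this list SLC6A9 passed the filter only through the 72 h control arrays, so its difference from them was bound to appear. One-carbon and folate enzymes outside the members were lower in 4 and higher in 2 of 8, with MTR at -1.74 ± 0.27 and AHCY at -1.38 ± 0.12. mTORC1 sensing genes were lower in 9 and higher in 1 of 15 (NPRL2 -2.15 ± 0.18, TSC2 -2.08 ± 0.18). NRF2 targets were higher in 3 and lower in 1 of 7, with ME1 at 1.21 ± 0.19 and NQO1 at -3.50 ± 0.37.

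At 24 h the high dose of Ota raised some members and lowered others. Of the 36 members, 6 were higher, 17 lower and 13 not called, against 21.6%, 42.4% and, either way, 64% of all genes. The member median was -0.56 and that of all genes -0.26. In total 21 members did not overlap their controls, 6 higher and 15 lower, against 65% of all genes (23% higher, 42% lower). Shifted arrays gave 13 higher and 10 lower, against 47.1% and 26.7% of all genes. The member median there was 0.08, where all genes had 0.38. Quantile normalisation gave 11 and 16, against 29.8% and 36.2% of all genes. The balance of rises and falls at this dose and time changed with the scaling, for the members and for all genes.

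STC2 and ATF3 rose most. STC2 read 9.30, 8.03 and 9.38 with the high dose of Ota at 24 h, against 4.58, 4.07 and 4.59, a rise of 22.4-fold (4.49 ± 0.38, adjusted p = 6.18e-08). ATF3 read 8.02, 8.34 and 8.16, against 4.03, 3.38 and 5.11, a rise of 4.01 ± 0.40 (floored 3.80). Neither gene's groups overlapped. CEBPG (0.93 ± 0.18), ASNS (0.86 ± 0.24), SLC3A2 (0.62 ± 0.22) and SHMT2 (0.45 ± 0.18) were also higher. ASNS read 10.33, 10.56 and 9.66, against 9.14, 9.55 and 9.27, so that 1 treated array lay close to the controls. SHMT2 lost its call when control replicate 2 (adjusted p = 0.0566), control replicate 3 (0.115), high dose replicate 1 (0.0702) or high dose replicate 2 (0.155) was left out, and SLC3A2 without control replicate 3 (0.118) or high dose replicate 1 (0.0588). CEBPG was not called with the mean of its probe sets (0.42, adjusted p = 0.114).

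DDIT4 fell furthest at that time. It read 8.93, 8.65 and 9.04 with the high dose, against 13.05, 13.12 and 12.83, which is 17.5-fold lower (-4.13 ± 0.14, adjusted p = 9.99e-12). INHBE read 2.80, 2.78 and 3.99, against 6.45, 6.45 and 6.57, at least 5.62-fold lower. SLC1A4 read 5.21, 4.79 and 5.44, against 8.28, 8.05 and 8.30, a change of -3.06 ± 0.21. None of the 3 overlapped its controls, and each was also called lower with shifted arrays. CTH read 6.49, 5.06 and 6.58, against 7.42, 7.74 and 7.96 (-1.66 ± 0.42). TRIB3 read 9.78, 9.32 and 9.92, against 11.31, 11.28 and 11.32 (-1.63 ± 0.19). SLC38A2, a carrier of small neutral amino acids, changed by -1.60 ± 0.15, CBS by -1.33 ± 0.16, SLC1A5 by -1.19 ± 0.16 and VLDLR by -1.20 ± 0.30.

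ATF4 read 11.29, 11.27 and 11.31 with the high dose of Ota at 24 h, against 12.32, 12.34 and 12.20. The 3 treated arrays agreed closely, and the change was -0.99 ± 0.12 (adjusted p = 4.41e-06). DDIT3 read 6.31, 5.12 and 7.70, against 7.62, 7.72 and 7.45, so that high dose replicate 3 lay within the controls. Its change of -1.21 ± 0.46 (adjusted p = 0.029) was not called with quantile normalisation (0.125), with shifted arrays (0.223), with the 24 h arrays alone (0.0715) or without high dose replicate 2 (0.181), 1 (0.0662) or control replicate 1 (0.0632) or 2 (0.0723). CEBPB (-1.25 ± 0.24) was lower too, while ATF5, MTHFD2, PSPH, XPOT, SLC7A1 and VLDLR were lower as deposited but not with shifted arrays (changes of -0.56 to -0.11, adjusted p = 0.0697 to 0.504). Another probe set of XPOT was called the other way (0.79), and with the mean of its probe sets XPOT stood at 0.02. SESN2 read 8.56, 8.60 and 8.76, against 8.35, 8.31 and 8.59, and was called higher with shifted arrays (0.85, adjusted p = 0.000403) and quantile normalisation (0.45, 0.0278) but not as deposited (0.22 ± 0.17). The mean of its probe sets gave -0.50. CHAC1, at 2.86, 4.39 and 4.34 against 4.37, 5.30 and 4.38, was not called (-0.82, floored -0.44, adjusted p = 0.111). PPP1R15A (0.04 ± 0.24) and PCK2 (0.08 ± 0.24) were not called, PCK2 reading 7.96, 8.39 and 7.50 against 7.82, 7.95 and 7.83.

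The neighbouring lists at this dose and time are read against 21.6% higher, 42.4% lower and 64% either way among all genes as deposited, and 47.1% higher and 26.7% lower with shifted arrays. Chaperones were higher in 6 and lower in 2 of 16 (13 and 1 with shifted arrays), with XBP1 at -1.80 ± 0.24 and HSPA5 at -1.06 ± 0.21. The eIF2 list was lower in 10 and higher in 4 of 19, or 7 and 7 with shifted arrays (EIF2B4 -3.38 ± 0.44, floored -3.35, DELE1 -3.23 ± 0.29, floored -3.07). Other targets were higher in 5 and lower in 6 of 22 (14 and 3 with shifted arrays), BCAT1 (2.32 ± 0.45) and RHBDD1 (-2.04 ± 0.28) most. One-carbon and folate enzymes outside the members were lower in 5 and higher in 1 of 8, or 4 and 3 with shifted arrays (MAT2A -1.85 ± 0.17, MTR -1.58 ± 0.27). mTORC1 sensing genes were lower in 8 and higher in 2 of 15 (6 and 5 with shifted arrays), with MIOS at least 11.8-fold lower and RRAGA at -3.44 ± 0.21. NRF2 targets were higher in 1 and lower in 2 of 7, or 3 and 0 with shifted arrays (ME1 0.74 ± 0.19, HMOX1 -1.04 ± 0.38). The leukocyte markers summed to 18.01 to 19.18, against 11.67 to 11.72 in the controls, with PTPRC, CD14 and CD3E over 4 on 0 arrays. FCER1G averaged 6.47 with the high dose, against 2.44, and ITGAM, a leukocyte integrin, 4.96, against 2.35. The 14 epithelial markers summed to 103.0 to 106.6, against 111.6 to 113.0. Their part in the members' changes was not tested.

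The low dose of Ota at 24 h moved 5 members, 1 higher and 4 lower, against 14.7% of all genes called. DDIT4 read 11.53, 11.40 and 11.26, against 13.05, 13.12 and 12.83 (-1.61 ± 0.14), and CBS read 7.20, 6.71 and 7.09, against 8.63, 8.12 and 8.52 (-1.43 ± 0.16). Both groups were clearly apart. In total 15 of 36 members did not overlap their controls, 1 higher and 14 lower, against 41.7% of all genes (15.6% higher, 26.1% lower). TRIB3 changed by -0.75 ± 0.19 and PCK2 by -0.77 ± 0.24. With the replicate block VLDLR was called lower too (-0.70 ± 0.18, adjusted p = 0.0161), where 5.13% of all genes were called higher and 10.9% lower. STC2, at 6.11, 4.66 and 6.11 against 4.58, 4.07 and 4.59, was the rise (1.21 ± 0.38, adjusted p = 0.044). It lost its call without any array but low dose replicate 2 (adjusted p = 0.0754 to 0.166) and with the 24 h arrays alone (0.156), and with the mean of its probe sets it stood at 0.62 (0.162). PCK2 lost its call without any of the 6 arrays (0.0566 to 0.134). High against low dose at 24 h gave 6 higher and 15 lower members, against 19.4% and 38.7% (58.1% either way) of all genes, with ATF3 (3.99 ± 0.40), STC2 (3.27 ± 0.38), INHBE (at least 5.69-fold lower) and SLC1A4 (-2.57 ± 0.21). Shifted arrays gave 16 higher and 7 lower there, against 43% and 24.6% of all genes, and quantile normalisation 13 and 13, against 28.2% and 32.4%.

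The high dose effect of Ota differed between 72 h and 24 h for 25 members, 3 higher and 22 lower at 72 h, against 53.8% of all genes called (33% higher, 20.8% lower). Each such difference contains the change of the controls between these times, where 32 members were called higher. ALDH1L2 differed by -6.14 ± 0.77 (floored -5.55) and ATF3 by -5.01 ± 0.56 (floored -4.80). SLC1A4 (1.11 ± 0.30) and CEBPB (0.99 ± 0.34) were the largest in the other direction. SLC1A4 was not called there with the mean of its probe sets (0.23, adjusted p = 0.354), nor CEBPB with shifted arrays (0.68, adjusted p = 0.0788). ATF3 read 8.02, 8.34 and 8.16 with the high dose at 24 h and 8.91, 8.84 and 8.48 at 72 h. Its controls read 4.03, 3.38 and 5.11 at 24 h and 9.56, 9.61 and 10.07 at 72 h. For the low dose, 5 members differed, all lower, against 7.34% of all genes (5.31% higher), with ALDH1L2 at -2.95 ± 0.77 and SLC3A2 at -1.16 ± 0.31. Leaving out 1 array gave 0 to 7.

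**Figure D4:**
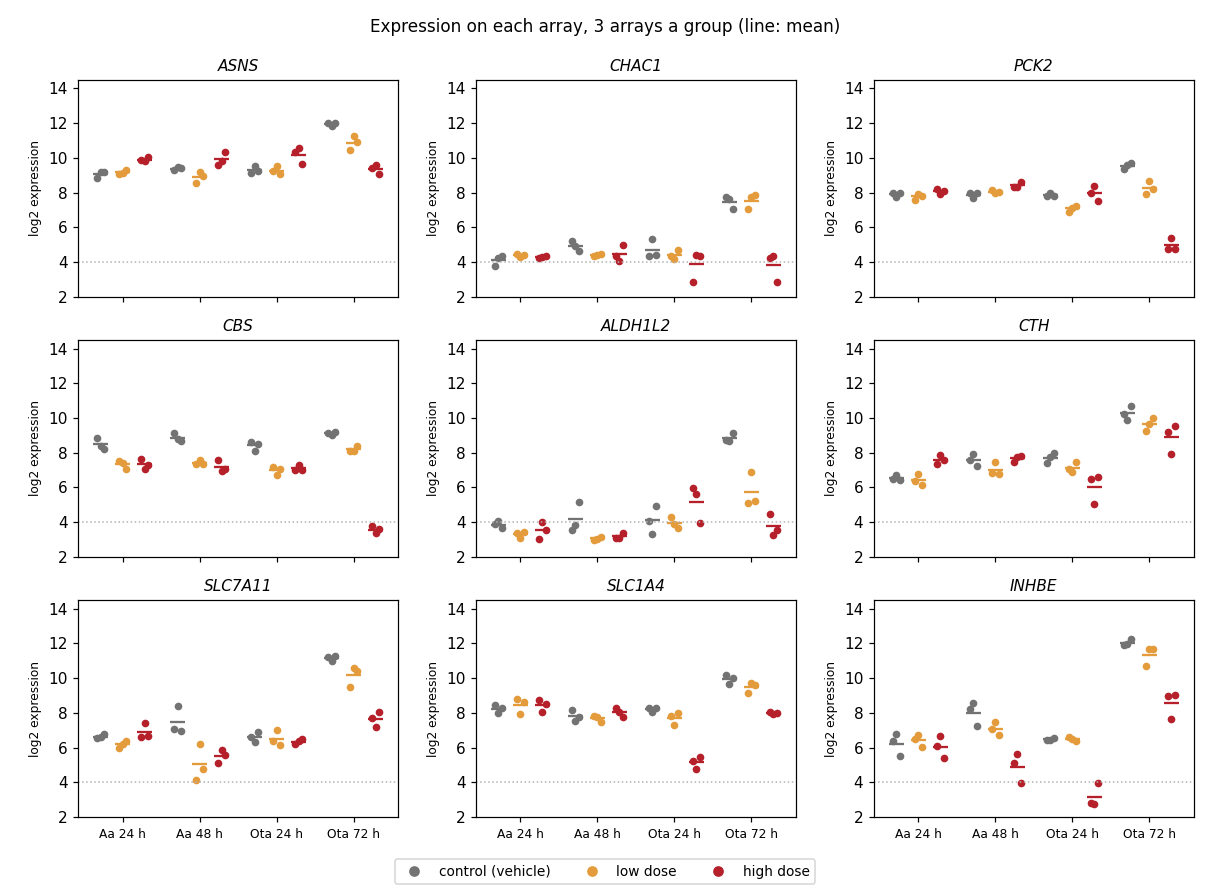
Log2 expression of 6 enzymes, 2 transporters and INHBE on each of the 36 arrays (y axis) by compound and time (x axis), with control, low dose and high dose side by side, a line at each group mean and a dotted line at 4. CBS and ALDH1L2 are near or under 4 in Ota high dose at 72 h, and SLC1A4 and INHBE are lowest in Ota high dose at 24 h.

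At the high Aa dose after 24 h, 13 of 35 members were higher, 4 lower and 18 not called, against 27.4% higher, 24% lower and 51.3% either way among all genes. The median was 0.19 for the members and 0.03 for all genes. The factors and feedback genes held 7 of the 13 rises. ATF3 read 10.23, 9.85 and 9.92, against 4.31, 4.36 and 5.14, a rise of 42.1-fold (5.40 ± 0.40, adjusted p = 1.02e-07). STC2 read 8.70, 8.75 and 8.17, against 5.15, 5.18 and 5.23 (3.35 ± 0.25). PPP1R15A read 9.32, 8.70 and 9.29, against 6.81, 6.34 and 7.14 (2.34 ± 0.27). These 3 did not overlap the controls and rose with the low dose as well. At this dose and time 19 of 35 members did not overlap, 13 higher and 6 lower. Among all genes 59.1% did not overlap (30.7% higher, 28.4% lower).

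DDIT3 read 9.44, 9.25 and 9.15 at the high Aa dose after 24 h, against 7.78, 7.96 and 7.95, a rise of 1.39 ± 0.18. ATF4 read 13.03, 13.05 and 13.17, against 12.26, 12.32 and 12.41, and rose by 0.76 ± 0.14 (adjusted p = 0.00042). ASNS read 9.88, 9.80 and 10.03, against 8.86, 9.18 and 9.19, and rose by 0.83 ± 0.19. All 3 sets of treated arrays lay above their controls. CTH read 7.35, 7.88 and 7.60, against 6.47, 6.73 and 6.45 (1.06 ± 0.22). SESN2 read 8.60, 8.39 and 8.57, against 7.98, 7.95 and 7.89 (0.58 ± 0.15). CEBPG (1.14 ± 0.11), SLC3A2 (0.73 ± 0.21), SHMT2 (0.69 ± 0.18), MTHFD2 (0.64 ± 0.12) and CEBPB (0.63 ± 0.19) were the remaining rises.

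DDIT4 went the other way. It read 11.71, 11.91 and 11.24 at the high Aa dose after 24 h, against 13.21, 13.19 and 12.91 (-1.48 ± 0.26), and CBS read 7.62, 7.09 and 7.28, against 8.85, 8.41 and 8.19 (-1.16 ± 0.21). Both groups were apart from their controls. VLDLR changed by -0.64 ± 0.18. TRIB3 read 10.95, 11.01 and 10.99, against 11.18, 11.36 and 11.28, a change of -0.29 ± 0.11 (adjusted p = 0.035) that was not called with quantile normalisation (0.0997), in 1 fit on all 36 arrays (0.128) or when any high dose array (0.0584 to 0.0906), control replicate 2 (0.116) or control replicate 3 (0.0754) was left out. CHAC1 was near the limit of 4 in both groups (4.25 to 4.33, against 3.80 to 4.34). ALDH1L2 exceeded 4 on 3 Aa arrays, and NUPR1 was at or under 4 on all 18 Aa arrays. With the replicate number as a block, ATF5 (0.67 ± 0.15), SLC7A5 (0.71 ± 0.19), SLC1A5 (0.41 ± 0.13), EIF4EBP1 (-0.38 ± 0.10) and PYCR1 (-0.35 ± 0.13) were called too. The block gave 16 higher and 6 lower members, against 33.3% and 29.9% of all genes.

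At 48 h the high dose of Aa gave 13 higher, 15 lower and 7 not called of 35 members, against 30.9%, 35.1% and, either way, 66% of all genes. The medians were 0.10 for the members and -0.04 for all genes. ATF3 read 11.71, 11.67 and 12.39, against 5.32, 4.35 and 5.40, a rise of 119-fold (6.90 ± 0.40, adjusted p = 4.59e-09). PPP1R15A read 10.41, 10.10 and 10.88, against 7.06, 6.72 and 7.19 (3.48 ± 0.27). STC2 read 9.59, 9.68 and 9.23, against 6.35, 6.21 and 5.19 (3.58 ± 0.25). None of the 3 overlapped its controls. In total 28 of 35 members did not overlap, 13 higher and 15 lower, against 69% of all genes (32.6% higher, 36.4% lower). SLC7A5 read 9.02, 8.84 and 9.15, against 7.25, 6.28 and 6.88, a rise of 2.20 ± 0.39, and its heavy chain SLC3A2 rose by 1.22 ± 0.21. ATF5 (1.57 ± 0.34) and DDIT3 (1.12 ± 0.18) rose as well. DDIT3 read 9.92, 10.07 and 10.16, against 9.34, 9.03 and 8.43.

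ATF4 read 12.70, 12.82 and 13.28 at the high Aa dose after 48 h, against 12.59, 12.73 and 12.61. The change of 0.29 ± 0.14 (adjusted p = 0.086) was not called, but was with the replicate block (0.0304) and quantile normalisation (0.03). The block also called SLC1A5 (0.54 ± 0.13, adjusted p = 0.00192). It gave 15 higher and 15 lower members, against 35.4% and 39% of all genes. CEBPG (0.67 ± 0.11), SHMT2 (0.63 ± 0.18), MTHFD2 (0.59 ± 0.12), PCK2 (0.55 ± 0.12), ASNS (0.54 ± 0.19) and SESN2 (0.49 ± 0.15) rose by smaller amounts. PCK2 read 8.31, 8.32 and 8.62, against 7.95, 7.71 and 7.95. ASNS read 9.56, 9.81 and 10.36, against 9.27, 9.46 and 9.39, and lost its call without control replicate 1 (adjusted p = 0.0626) or high dose replicate 3 (0.127). SESN2 was not called with the mean of its probe sets (0.0926). It read 8.55, 8.36 and 8.60, against 8.31, 7.94 and 7.80.

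Of the 13 enzymes, 7 fell and 4 rose at that time. INHBE read 5.10, 5.66 and 3.99 at the high Aa dose after 48 h, against 8.26, 8.58 and 7.22 (-3.10 ± 0.46). DDIT4 read 11.40, 10.50 and 10.44, against 13.58, 13.23 and 12.92 (-2.46 ± 0.26). SLC7A11 read 5.11, 5.89 and 5.57, against 7.08, 8.38 and 6.95 (-1.95 ± 0.44). Each lay wholly below its controls. VLDLR changed by -1.92 ± 0.18, CBS by -1.67 ± 0.21 and TRIB3 by -1.39 ± 0.11, with TRIB3 at 10.45, 10.63 and 10.20, against 11.89, 11.72 and 11.85. SLC38A2 (-0.86 ± 0.12), PSAT1 (-0.85 ± 0.16), PSPH (-0.74 ± 0.17), PYCR1 (-0.68 ± 0.22) and SLC7A1 (-0.59 ± 0.09) were also lower, PYCR1 not without control replicate 1 (adjusted p = 0.0506) or high dose replicate 2 (0.0771) and SLC7A1 not with the mean of its probe sets (0.0538). JDP2 (-0.56 ± 0.20), CHAC1 (-0.50 ± 0.20), XPOT (-0.30 ± 0.12) and ALDH1L2 lost their calls under at least 1 alternative. ALDH1L2 was at or under 4 on all treated arrays and at least 1.13-fold lower, with the floored change not called (adjusted p = 0.12). CHAC1 read 4.32, 4.07 and 4.95, against 5.24, 4.94 and 4.66, and was not called with quantile normalisation (0.0593). Against the 24 h controls, 17 members were higher and 13 lower at this dose (29% and 33.9% of all genes).

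The low dose of Aa moved fewer members. At 24 h, 7 of 35 were higher and 2 lower, against 11.6%, 13.5% and, either way, 25.1% of all genes. ATF3 read 6.15, 5.58 and 6.96, against 4.31, 4.36 and 5.14 (1.62 ± 0.40), and STC2 read 6.99, 6.65 and 6.81, against 5.15, 5.18 and 5.23 (1.63 ± 0.25). Both lay between the controls and the high dose. ATF4 read 12.95, 12.70 and 13.06 and rose by 0.57 ± 0.14, CEBPG rose by 1.07 ± 0.11, and PPP1R15A rose by 0.96 ± 0.27. With the mean of its probe sets CEBPG was not called (0.39, adjusted p = 0.0531). CBS (-1.15 ± 0.21) and VLDLR (-0.80 ± 0.18) fell. At 48 h, 7 were higher and 10 lower, against 18.8%, 19.1% and, either way, 37.9% of all genes. ATF3 rose by 3.65 ± 0.40, STC2 by 2.00 ± 0.25, PPP1R15A by 1.62 ± 0.27 and ATF5 by 1.33 ± 0.34. SLC7A11 read 4.16, 6.19 and 4.79, against 7.08, 8.38 and 6.95, and fell by 2.42 ± 0.44 on the log2 scale. CBS changed by -1.45 ± 0.21 and DDIT4 by -0.97 ± 0.26. With the replicate block, ASNS (-0.48 ± 0.14), CTH (-0.57 ± 0.14), INHBE (-0.93 ± 0.16), PYCR1 (-0.39 ± 0.13) and SLC38A2 (-0.22 ± 0.07) were called lower too, and SHMT2 higher (0.40 ± 0.11). That gave 8 higher and 15 lower members, against 26.8% and 26.4% of all genes. At 24 h the block added ATF5 (0.64 ± 0.15), SHMT2 (0.44 ± 0.11) and SESN2 (0.36 ± 0.11) higher and EIF4EBP1 (-0.32 ± 0.10) lower. It gave 10 higher and 3 lower members there, against 18.3% and 21.1% of all genes.

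High against low dose of Aa gave 7 higher and 3 lower members at 24 h, against 17.1% and 9.95% (27.1% either way) of all genes, and 9 and 7 at 48 h, against 20.9% and 25.6% (46.5%). ATF3 (3.77 ± 0.40) and STC2 (1.72 ± 0.25) led the rises at 24 h, and ATF3 (3.25 ± 0.40) and PPP1R15A (1.85 ± 0.27) those at 48 h. DDIT4 (-1.07 ± 0.26) and TRIB3 (-0.34 ± 0.11) were lowest at 24 h, and INHBE (-2.18 ± 0.46) and DDIT4 (-1.49 ± 0.26) at 48 h. With the replicate block, 10 were higher and 4 lower at 24 h, where 25.3% and 16.2% of all genes were called. It added SLC7A5 (0.74 ± 0.19), SLC3A2 (0.46 ± 0.11) and PCK2 (0.31 ± 0.11) higher and PSAT1 (-0.34 ± 0.11) lower. At 48 h it gave 11 and 8, against 27.2% and 31.6%, adding SLC1A5 (0.56 ± 0.13) and EIF4EBP1 (0.35 ± 0.10) higher and JDP2 (-0.49 ± 0.15) lower.

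The high dose effect of Aa differed between 48 h and 24 h for 9 members, 1 higher (PPP1R15A, 1.13 ± 0.38) and 8 lower, against 20.7% of all genes called. INHBE (-2.93 ± 0.65) and SLC7A11 (-2.21 ± 0.62) differed most. With the block, 5 were higher and 12 lower, against 15.5% and 23.7% of all genes. It added SLC7A5 (1.49 ± 0.27), ATF3 (1.504 ± 0.55), ATF5 (0.90 ± 0.22) and SLC3A2 (0.48 ± 0.16) higher, and DDIT4 (-0.98 ± 0.23), PSAT1 (-0.62 ± 0.16), ATF4 (-0.47 ± 0.16) and XPOT (-0.44 ± 0.16) lower. Leaving out 1 array gave 5 (without 24 h high dose replicate 2 or 48 h control replicate 2) to 11. The low dose effect differed for 1 member, SLC7A1 (-0.67 ± 0.13), against 1.64% of all genes (1.38% higher). SLC7A1 was not called with the mean of its probe sets (-0.32, adjusted p = 0.503), in 1 fit on all 36 arrays (0.325) or without any 1 of 5 arrays (0.0558 to 0.0662). With the block 5 members were called, against 6.35% of all genes higher and 2.96% lower. The block added ATF3 (2.02 ± 0.55) higher and SLC7A11 (-1.98 ± 0.45), INHBE (-1.13 ± 0.23) and TRIB3 (-0.52 ± 0.13) lower.

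The neighbouring lists with the high dose of Aa are read against the 51.3% of all genes called at 24 h (27.4% higher, 24% lower) and the 66% called at 48 h (30.9% higher, 35.1% lower). NRF2 targets were higher in 7 and lower in 0 of 8 at 24 h, HMOX1 by 1.11 ± 0.22 and OSGIN1 at least 2.64-fold. OSGIN1 exceeded 4 on 7 of the 18 Aa arrays, 6 of them high dose arrays, so it passed the filter through the groups where it is high and was bound to differ. At 48 h they were higher in 5 and lower in 1 of 8 (OSGIN1 at least 3.95-fold higher, ME1 -1.09 ± 0.16). The chaperone list was higher in 3 and lower in 5 of 16 at 24 h (ATF6 -1.11 ± 0.24, ERN1 0.80 ± 0.31) and higher in 6 and lower in 5 at 48 h (ATF6 -3.07 ± 0.24, XBP1 -1.33 ± 0.12). The eIF2 list was higher in 4 and lower in 4 of 19 at 24 h (DELE1 -1.01 ± 0.20, GCN1, the activator of GCN2, 0.93 ± 0.13), and 6 and 7 at 48 h (DELE1 -1.71 ± 0.20, OMA1 -1.69 ± 0.22). Other targets were higher in 3 and lower in 4 of 21 at 24 h (GADD45A 1.81 ± 0.20, SLC3A1 -2.04 ± 0.49), and 6 and 10 at 48 h (TXNIP 3.09 ± 0.51, SLC3A1 -3.43 ± 0.49). One-carbon and folate enzymes outside the members were lower in 5 of 8 at 24 h and 4 of 8 at 48 h, higher in 0 (MTR -1.53 ± 0.16 and -1.32 ± 0.16, GLDC -0.98 ± 0.23 and -0.79 ± 0.23). mTORC1 sensing genes were higher in 7 and lower in 4 of 16 at 24 h (CASTOR1 1.25 ± 0.28, floored 0.12, DEPTOR -1.65 ± 0.32), and 6 and 7 at 48 h (DEPTOR -2.99 ± 0.32, RPTOR -1.34 ± 0.20). CASTOR1 exceeded 4 on 3 of the 18 Aa arrays, and on none of its 24 h controls. It passed the filter mainly through the group where it is high, so its rise was favoured in advance. Floored, it was not called (adjusted p = 0.255). The 14 epithelial markers summed to 101.3 to 102.4 with the high dose at 24 h, against 110.2 to 111.5, and to 99.1 to 102.1 at 48 h, against 111.1 to 112.1. The 6 distal nephron markers summed to 25.8 to 27.8 at 24 h, against 28.7 to 30.2, and to 26.2 to 28.6 at 48 h, against 29.0 to 30.6. The 5 leukocyte markers summed to 13.4 to 15.9 at 48 h, against 11.6 to 12.1, with FCER1G averaging 4.73, against 2.55. The gap between the 3′ and 5′ actin control probe sets was 1.01 ± 0.33 with the high dose at 24 h, against 0.79 ± 0.10 (SD). At 48 h the gap was 1.25 ± 0.30, against 0.86 ± 0.22. Their part in the members' changes was not tested.

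At 24 h the effects of the 2 compounds were compared as an interaction in a fit on all 36 arrays, with doses not known to be matched. The high dose effect differed for 18 of 36 members, 1 higher and 17 lower with Ota, against 18.7% higher, 40.7% lower and 59.4% either way among all genes. SLC1A4 (-3.25 ± 0.33, adjusted p = 2.15e-09), INHBE (-3.13 ± 0.61, floored -2.32) and DDIT4 (-2.65 ± 0.30) were lower with Ota. CTH (-2.72 ± 0.50), DDIT3 (-2.60 ± 0.51), PPP1R15A (-2.30 ± 0.37) and ATF4 (-1.75 ± 0.19) were among the others. STC2 differed by 1.14 ± 0.47 (adjusted p = 0.0402), a call lost on leaving out any 1 of 7 arrays (0.056 to 0.116), and with the mean of its probe sets it stood at 0.28 (0.484). ASNS was called higher with each compound at 24 h, by 0.86 ± 0.24 with Ota and 0.83 ± 0.19 with Aa, and was not called in the interaction. With shifted arrays, 7 were higher and 12 lower with Ota, against 43.6% and 24.4% of all genes. The member median there was 0.10, where all genes had 0.42. The low dose effect differed for 4 members, all lower with Ota, against 4.94% of all genes: DDIT4 (-1.19 ± 0.30), CEBPG (-1.10 ± 0.21), TRIB3 (-0.79 ± 0.22) and ATF4 (-0.76 ± 0.19). CEBPG was not called with the mean of its probe sets (-0.50, adjusted p = 0.329).

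DDIT4 and CBS were called lower, and STC2 higher, with the high dose in all 4 pairs of compound and time, under every scaling tried. TRIB3 and VLDLR were called lower in all 4 as deposited. TRIB3 was not with quantile normalisation (Aa, 24 h), nor VLDLR with shifted arrays (Ota, 24 h). Of all genes, 51.3% and 66% were called with Aa at 24 h and 48 h, and 64% and 63.4% with Ota at 24 h and 72 h. The share of all genes called the same way in all 4 was not computed. DDIT4 stood at 12.83 or more on all 12 control arrays and at 11.91 or less on all 12 high dose arrays. STC2 stood at 4.07 to 7.77 on the control arrays and 8.03 to 10.65 on the high dose arrays. CBS stood at 8.12 to 9.19 on the control arrays and 3.38 to 7.62 on the high dose arrays.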

How the data were processed

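RNA of 36 HK-2 cultures was measured on Affymetrix arrays, 3 per group in 12 groups, and the labels call the replicates biological. The authors deposited log2 expression values made with GCRMA, per the submitters' processing notes; the sources used here give neither its version nor whether all arrays were normalised jointly. Of 54675 probe sets, 62 control sets were left out, 41091 carried 1 gene symbol in the platform annotation, 1801 several and 11721 none. Each of 19775 genes was read through its brightest probe set by mean over all arrays. GCRMA values hold no counts, so the number of arrays limits precision.

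Genes over 4 on at least 3 arrays were fitted with limma 3.58.1 (R 4.3.3; lmFit and eBayes), with group as the only term. There were 10972 genes over the 18 Aa arrays, 11029 over the 18 Ota arrays and 11405 over all 36 for Ota against Aa. Calls used an adjusted p under 0.05 (Benjamini-Hochberg over all genes of the fit). "At least" folds apply where no array of a group exceeded 4, and floored values set lower readings to 4. The fit was tested on simulated data. The members and the neighbouring lists were chosen with earlier results of these data known. Members were named by role with values and by the largest changes in each direction. For the high doses, the largest changes of each neighbouring list were named.

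Replicate numbers are shared between groups. Same-numbered arrays deviated together in all Aa comparisons (r = 0.189 to 0.578) and in the Ota 24 h comparisons with control (0.109 to 0.230 for the high dose, 0.312 to 0.411 for the low dose), but not in all pairs at 72 h (-0.057 to 0.227). The main model has no block. Where the numbers pair the samples, calls that the block adds are given in the report, and the others in the closing section. Alternatives were quantile normalisation, arrays shifted to a common median, other filters, the mean of the probe sets, 1 fit on all arrays, the block and leaving out each replicate. Plots used matplotlib 3.10.9 (Python 3.11.15).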

Additional observations from a re-analysis of the deposited data

Results flagged for a closer look

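Each result below is a difference between 2 effects that passed the test of the difference itself (limma, adjusted p under 0.05), given as log2 ± SE. A difference between times also contains the change of the controls between those times. Between 48 h and 24 h of Aa, the high dose effect differed by 1.13 ± 0.38 for PPP1R15A (adjusted p = 0.047), by -2.93 ± 0.65 for INHBE (0.00616) and by -2.21 ± 0.62 for SLC7A11 (0.0219). With no filter on dim genes, PPP1R15A (0.0953) and SLC7A11 (0.052) were not called. The low dose effect of Aa differed by -0.67 ± 0.13 for SLC7A1 (0.0229), which was not called with the mean of its probe sets (-0.32, 0.503) or in 1 fit on all 36 arrays (0.325). Between 72 h and 24 h of Ota, the high dose effect differed by 1.11 ± 0.30 for SLC1A4 (0.00525) and by 0.99 ± 0.34 for CEBPB (0.0227). It differed by -6.14 ± 0.77 for ALDH1L2 (1.11e-05) and by -5.01 ± 0.56 for ATF3 (3.86e-06). CEBPB was not called there with shifted arrays (0.68, 0.0788), nor SLC1A4 with the mean of its probe sets (0.23, 0.354). The low dose effect of Ota differed by -2.95 ± 0.77 for ALDH1L2 (0.0306) and by -1.16 ± 0.31 for SLC3A2 (0.0335). Neither was called with no filter on dim genes (0.081 and 0.0644).

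At 24 h, with doses not known to be matched, the high dose effect of Ota minus that of Aa was 1.14 ± 0.47 for STC2 (0.0402), -3.25 ± 0.33 for SLC1A4 (2.15e-09) and -3.13 ± 0.61 for INHBE (6.54e-05). STC2 was not called there with the mean of its probe sets (0.28, 0.484) or with no filter on dim genes (0.0542). The low dose effect of Ota minus that of Aa was -1.19 ± 0.30 for DDIT4 (0.0183) and -1.10 ± 0.21 for CEBPG (0.00186), which was -0.50 (0.329) with the mean of its probe sets.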

How the results depend on the processing

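With 3 arrays a group, changes near the threshold depended on single arrays. Of 338 member results each, 295 kept direction and side of the threshold with shifted arrays, 335 with the replicate block, 335 floored at 4 and 312 with no filter. Quantile normalisation kept 318 of 336, the mean of the probe sets 299 of 336 and 1 fit on all 36 arrays 292 of 316. The causes were not tested.

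With the replicate block, the Aa high dose effect was called to differ between times in 17 members, the Aa low dose effect in 5 and the Aa controls in 7. Elsewhere with Aa, and for VLDLR in Ota low dose at 24 h, the block added the members named in the report. In Ota comparisons whose numbers do not pair all samples, and in interactions with Ota, it also called SLC1A5 in Ota low dose at 72 h (-0.46), VLDLR (-0.50) at 24 h and CTH (-0.76) at 72 h in high against low dose, ATF5 (0.73) in the Ota high dose effect, ASNS (-1.02) in the Ota low dose effect, and VLDLR (-0.56) at high and PPP1R15A (-1.18) at low dose in Ota against Aa. In 1 fit on all 36 arrays, Aa low dose at 48 h had 6 lower, the Aa low dose effect 0, the Aa controls 1 and Ota low dose at 72 h 1 higher. For Ota high dose at 24 h, quantile normalisation gave 11 higher and shifted arrays 13 higher and 10 lower, and shifted arrays gave 2 for the low dose effects at 24 h of Ota against Aa. With no filter, Ota low dose at 24 h had 0 higher and the Ota low dose effect 1. Fitted on 1 time only, an alternative added after seeing the data, Ota low dose had 0 higher at 24 h and 1 at 72 h. Against the 24 h controls, also added then, Aa low dose at 48 h had 5 lower, Ota high dose at 72 h 11 higher and 12 lower, and Ota low dose at 72 h 26 higher and 1 lower.

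Leaving out 1 replicate gave 5 to 11 members for the Aa high dose effect, 0 to 2 for the Aa low dose effect, 0 to 6 for the Aa controls, 0 to 1 higher for Ota low dose at 24 h, 10 to 17 lower for Ota low dose at 72 h, 0 to 7 for the Ota low dose effect and 2 to 5 for the low dose effects of Ota against Aa. Ota high dose at 24 h had 4 to 8 higher, Ota high dose at 72 h 28 to 30 lower and the Ota controls 31 to 33.

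The direction turned for the following values. With shifted arrays, DDIT3 in Aa low dose at 24 h was 0.0054, ASNS in Ota low dose at 24 h 0.0684 and PSPH in Ota against Aa at high dose 0.0089. With the mean of the probe sets, TRIB3 in Aa low dose at 24 h was -0.0088, SESN2 -0.498 in Ota high and -0.0635 in Ota low dose at 24 h, XPOT 0.0211 in Ota high dose at 24 h and SLC7A1 0.0345 in Ota against Aa at high dose. With quantile normalisation, CHAC1 in Ota low dose at 72 h was -0.0262. With 1 replicate left out, CHAC1 in Aa high dose at 24 h ranged over -0.0027 to 0.269. In Aa low dose at 24 h, DDIT3 ranged over -0.0872 to 0.0018, TRIB3 over -0.0035 to 0.0875 and ASNS over -0.0272 to 0.138. DDIT3 in Aa low dose at 48 h ranged over -0.417 to 0.0398. In Ota low dose at 24 h, SESN2 ranged over -0.0300 to 0.148, ASNS over -0.189 to 0.0584 and CHAC1 over -0.440 to 0.0223. CHAC1 in Ota low dose at 72 h ranged over -0.134 to 0.314. None of these was called without the alternative, except XPOT in Ota high dose at 24 h and PSPH and SLC7A1 in Ota against Aa.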
